A study of Mus musculus with 10 samples.

Results

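Accessibility was examined at the ends of the nuclear genes that encode oxidative phosphorylation (OXPHOS), in 10 ATAC-seq libraries from mouse brain and lung. ATAC-seq uses the transposase Tn5, which cuts open chromatin and inserts sequencing adapters, so that reads pile up where DNA is accessible. A peak was counted as a member when its centre lay within 1 kb of an end of an OXPHOS gene and no other coding gene had a nearer end. The genes were those whose symbols begin with Ndufa, Ndufb, Ndufc, Ndufs, Ndufv, Uqcr, Cox4 to Cox8 or Atp5, together with Sdha, Sdhb, Sdhc, Sdhd, Cycs and Cyc1. This rule found 92 of the 37513 deposited peaks, at 74 of 98 annotated genes, against 13817 peaks at the ends of any nuclear coding gene.

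The groups were brain with 50 nuclei per library (2 libraries), brain with about 200 nuclei (2), lung with 50 nuclei (3) and lung with about 200 nuclei (3). All libraries came from wild-type C57BL/6J mice, an inbred laboratory strain, and no age was given. Frozen sections were treated with Tn5 on the slide, and nuclei were then cut out with a laser. The 50-nucleus libraries held nuclei captured singly and the 200-nucleus libraries held 10 larger areas, so number and way of capture changed together. Replicates were described as technical at the least, so every p-value measures only the spread between these libraries. Nuclei of all cell types were pooled, so more nuclei of one type and more accessibility per nucleus cannot be told apart.

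OXPHOS is the last stage of respiration. Complexes I to IV of the inner mitochondrial membrane pass electrons to oxygen, and complexes I, III and IV pump protons. Cytochrome c carries electrons between complexes III and IV, and complex V uses the proton gradient to make ATP. Most subunits are encoded in the nucleus and imported, while a few core subunits are encoded by mitochondrial DNA. Neurons depend heavily on this ATP. NRF1 (nuclear respiratory factor 1), the ETS factor GABP and YY1 are known regulators of OXPHOS gene promoters.

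Because the peaks lay at promoters, stretches of promoter sequence are shown first for genes that recur below. Sequences are from RefSeq (GRCm38.p6, the mm10 assembly of the peaks), which had a promoter window for 62 of the 74 genes, and they run 5′ to 3′ on the strand of the gene. Positions count back from the annotated start, where −1 is the last base before it. Cytochrome c (Cycs), the electron carrier, is shown over the 250 bases before its start, chr6:50566570-50566819 on the minus strand. Its capitals mark a cAMP response element (TGACGTCA, first base at −169) and the NRF1 core (CGCATGCG, first base at −61).
Cycs: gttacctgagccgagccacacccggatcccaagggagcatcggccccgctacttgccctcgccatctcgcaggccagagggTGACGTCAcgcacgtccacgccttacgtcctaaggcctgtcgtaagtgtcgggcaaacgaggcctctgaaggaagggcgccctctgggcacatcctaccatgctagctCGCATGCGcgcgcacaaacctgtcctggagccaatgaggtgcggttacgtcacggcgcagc

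The next stretches of 60 bases show the same NRF1 core, in capitals, in a complex I assembly factor, a complex I subunit, a complex IV subunit and 2 complex V subunits. Ndufaf4 is at chr4:24897945-24898004 on the plus strand. On the minus strand, Ndufa8 is at chr2:36049339-36049398, Cox6a1 at chr5:115349086-115349145, Atp5g2 at chr15:102671055-102671114 and Atp5k at chr5:108434415-108434474. Ndufaf8, at chr11:120098874-120098933 on the plus strand, is shown because a peak beyond its start passed the tissue test. Its capitals mark the ETS core (CCGGAAG, first base at −8).
Ndufaf4: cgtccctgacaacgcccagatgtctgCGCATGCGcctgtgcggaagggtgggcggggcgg
Ndufa8: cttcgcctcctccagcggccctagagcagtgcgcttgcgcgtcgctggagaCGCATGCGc
Cox6a1: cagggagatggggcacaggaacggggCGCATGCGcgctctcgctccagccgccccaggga
Atp5g2: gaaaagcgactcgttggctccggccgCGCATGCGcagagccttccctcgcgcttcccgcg
Atp5k: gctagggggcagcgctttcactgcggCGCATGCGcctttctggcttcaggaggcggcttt
Ndufaf8: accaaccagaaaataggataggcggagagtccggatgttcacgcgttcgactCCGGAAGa

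Windows of 300 bases, 250 before and 50 after each start, were searched on both strands. The NRF1 core CGCATGCG was present in 11 of 62 windows (17.7%), against 4.31% of 8012 windows of coding genes with a gene-end peak and 2.54% of all 17492 windows. The 11 genes were Ndufaf4, Ndufaf5, Ndufa8, Ndufa11, Uqcr11, Uqcrc1, Cox6a1, Atp5g2, Atp5k, Atp5l and Cycs, so complex II was the only class without one. Of complex II only Sdha, Sdhb and Sdhd had a window, too few to read anything from this absence. The YY1 core AAGATGGCG was present in 6 OXPHOS windows (9.68%), against 3.26% of windows of genes with a peak. The ETS core CCGGAAG was present in 16 (25.8%), against 18.6%, and the cAMP response element in 5 (8.06%), against 3.56%. The SP/KLF box GGGCGG went the other way, with 29 OXPHOS windows (46.8%) against 67.6%, and CCAAT did not stand apart, with 25 (40.3%) against 39.9%. Matches of different motifs shared bases once, in Ndufs3, where an ETS core met an SP/KLF box. These shares are descriptions and were not tested. Levels (RPM) are scaled to 1000000 nuclear-peak reads per library. The median level of the strongest peak, per kb of its width, was 123 RPM per kb for the 11 genes with the NRF1 core and 124 RPM per kb for the 51 without it.

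The member peaks were promoter peaks. Of the 76 whose gene had a known strand, 76 lay at the 5′ end and 0 at the 3′ end, against 95.5% at the 5′ end for all 11111 gene-end peaks of known strand. The strand of the other 16 was not known here. The median distance from centre to gene end was 55.5 bp, and 60 of 92 lay within 100 bp. The member nearest the 1 kb limit was an Atp5g2 peak at 896 bp, and the next was an Atp5l peak at 570 bp. A wider rule that took every peak within 1 kb of an OXPHOS gene end, whichever gene was nearest, held 122 peaks. Another coding gene also ended within 1 kb at 35 peaks of 31 genes, as for Ndufb5 and Mrpl47, Sdhd and Timm8b, or Atp5j and Gabpa. Examples among the genes described below are Ndufaf2 (Ercc8), Ndufaf3 (Dalrd3), Ndufaf5 (Esf1), Ndufaf8 (Tepsin), Ndufv3 (Wdr4), Uqcrq (Gdf9), Uqcrh (Lrrc41) and Cox4i1 (Emc8), each with its neighbour in brackets. Reads at these shared promoters cannot be assigned to one of the pair.

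Coverage differed between the complexes. Peaks were present for 30 of 41 complex I subunit genes, all 8 Ndufaf assembly factor genes, all 4 complex II genes, all 9 complex III genes with Cyc1, 10 of 18 complex IV genes and 12 of 17 complex V genes. Several tissue isoforms were among the 24 genes without one. These included Cox4i2, known as the lung isoform of subunit 4, Cox6a2 and Cox8b, known from heart and skeletal muscle, and Ndufa4l2, which is known to be induced by hypoxia. Core genes without one included Ndufs1, an iron-sulfur subunit of complex I, and Cox5a and Atp5d. A gene without a peak here is one with no row under this rule, which is no measure of its expression.

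Libraries differed in depth and in the number of empty member peaks. Reads in nuclear peaks numbered 319307 to 465489 per brain library and 340697 to 3075377 per lung library. In lung libraries of 50 nuclei, 6, 30 and 31 of the 92 member peaks held no read in replicates 1, 2 and 3, against 0 to 3 in brain libraries. In the other lung libraries the number was 1 to 4. The share of empty member peaks in lung 50 replicates 2 and 3 was 32.6% and 33.7%, beside 30.1% and 33.2% of all gene-end peaks, although replicate 3, with 547792 reads, was deeper than any brain library. Of 13 peaks at neuronal and glial marker genes, 10 were higher in brain and none lower, with summed levels of 443 to 527 RPM in brain and 12.8 to 99.2 RPM in lung. Of 16 peaks at lung endothelial, stromal and epithelial marker genes, 6 were lower in brain and none higher, with 218 to 290 RPM in brain and 434 to 667 RPM in lung. By the same rule 7 of 18 brain marker genes had no peak, among them Gad1, Gad2 and Rbfox3 of neurons and Gfap of astrocytes, and 6 of 18 lung marker genes had none, among them Sftpc and Nkx2-1 of epithelium and Pecam1 of endothelium. Of 12 cardiac muscle marker genes none had a peak, and of 10 immune marker genes 2 did, with summed levels of 30.1 to 72.0 RPM in brain and 41.7 to 66.8 RPM in lung. The part of cell makeup in any OXPHOS value was not tested.

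Reads on mitochondrial DNA, the other genome of OXPHOS, differed far more in share between the tissues than nuclear OXPHOS promoter reads did. Of all reads in peaks, 93.4% and 95.2% fell on chrM at 50 nuclei in brain, and 94.2% and 95.8% at 200. In lung the shares were 58.0%, 40.6% and 49.4% at 50 nuclei and 38.4%, 28.0% and 24.7% at 200. No brain library overlapped any lung library. The share is one of reads in peaks, and the amount of mitochondrial DNA per cell was not measured. Within lung its mean was 49.3% at 50 nuclei and 30.3% at 200, and the part of capture was not tested. The chrM reads came from 2 peaks, one over the rRNA genes, ND1, ND2 and 71.1% of COX1, and one over 39.4% of ND4, all of ND5, ND6 and CYTB. Read density per kb in the first over that in the second was 0.90 to 0.97 in every library.

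For each read at an OXPHOS promoter there were 3992 ± 763 chrM reads in brain (SD, n = 4) and 193 ± 97 in lung (SD, n = 6). The summed nuclear level was 4381 and 4569 RPM at 50 nuclei in brain, and 4616 and 4599 RPM at 200. In lung it was 3952, 4147 and 3697 RPM at 50 nuclei and 3621, 3383 and 3547 RPM at 200. The lowest brain library exceeded the highest lung library. The means were 4542 ± 109 RPM for brain (SD, n = 4), against 3725 ± 279 RPM for lung (SD, n = 6), a ratio of 1.22. Averaged within nuclei number, the log2 difference was 0.29, with a pooled SD of 0.06 between replicate libraries. Part of it was shared by promoters at large. Gene-end peaks of all coding genes held 64.0 ± 2.0% of nuclear-peak reads in brain (SD, n = 4) and 57.3 ± 1.1% in lung (SD, n = 6). OXPHOS peaks held 0.704% to 0.719% of those gene-end reads in brain and 0.602% to 0.734% in lung. The ranges overlap only through lung 50 replicate 2 (0.734%), and the other lung libraries held at most 0.686%. The log2 difference over gene-end reads was 0.13.

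**Figure D1:**
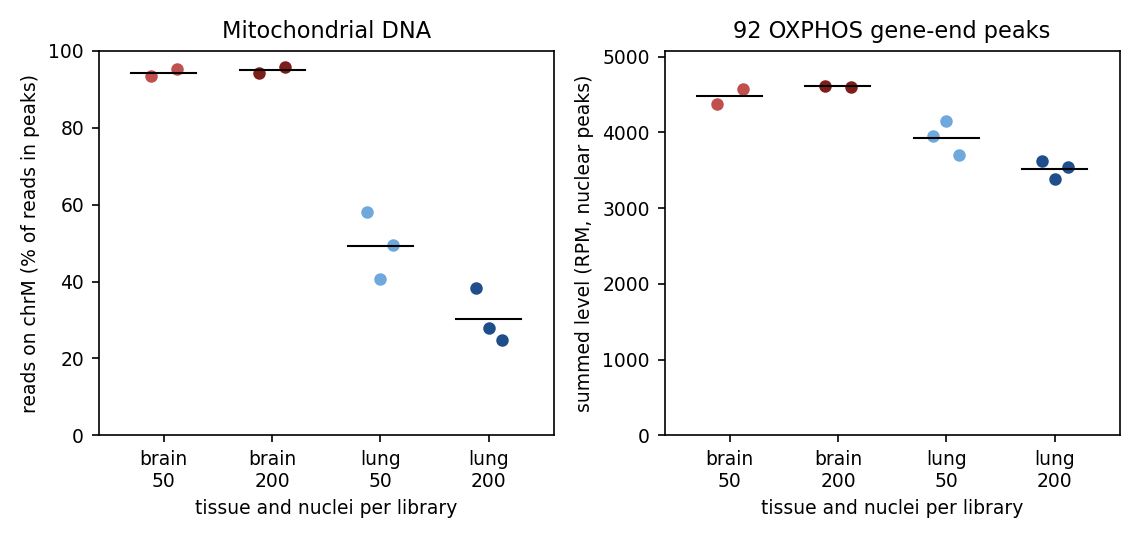
Share of reads on chrM (left, % of reads in peaks) and summed level of the 92 OXPHOS gene-end peaks (right, RPM), by tissue and nuclei per library; each point is 1 library and each bar a group mean. Brain libraries sit at 93.4% to 95.8% chrM and lung libraries at 24.7% to 58.0%, while the summed OXPHOS levels are 4381 to 4616 RPM in brain and 3383 to 4147 RPM in lung.

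By complex, the tissue difference was unequal in size. The 8 peaks of the Ndufaf genes, which help to assemble complex I and are not part of it, had the highest ratio, with 326, 345, 271 and 335 RPM in brain and 126 to 217 RPM in lung (median fold on the log2 scale 0.93, ratio of means 1.78). The ranges did not overlap. Complex I subunits, with 35 peaks, summed to 1869, 1920, 1991 and 2002 RPM in brain and 1558 to 1763 RPM in lung, a ratio of 1.19. Complex III, with 14 peaks, summed to 477 to 579 RPM in brain and 330 to 461 RPM in lung, a ratio of 1.28, and all 14 fitted folds were positive. These 3 classes had no overlap between tissues. Nor did the share of nuclear-peak reads at all gene-end peaks, at 61.0% to 65.4% in brain and 56.2% to 59.4% in lung.

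The other classes overlapped. Complex II, succinate dehydrogenase, which is also an enzyme of the citric acid cycle and is encoded wholly in the nucleus, summed to 226 to 293 RPM in brain and 200.0 to 317 RPM in lung (ratio 1.04). Complex IV, cytochrome c oxidase, summed to 493 to 537 RPM in brain and 359 to 524 RPM in lung (ratio 1.16). Only lung 50 replicate 3 (524 RPM) made this overlap, and the other lung libraries held at most 463 RPM. Complex V, ATP synthase, summed to 750 to 887 RPM in brain and 487 to 904 RPM in lung (ratio 1.24). Here only lung 50 replicate 2 (904 RPM) made the overlap, and the other lung libraries held at most 719 RPM. The single Cycs peak had 138 to 198 RPM in brain and 131 to 208 RPM in lung (ratio 1.06). No test was made of the difference between classes.

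**Figure D2:**
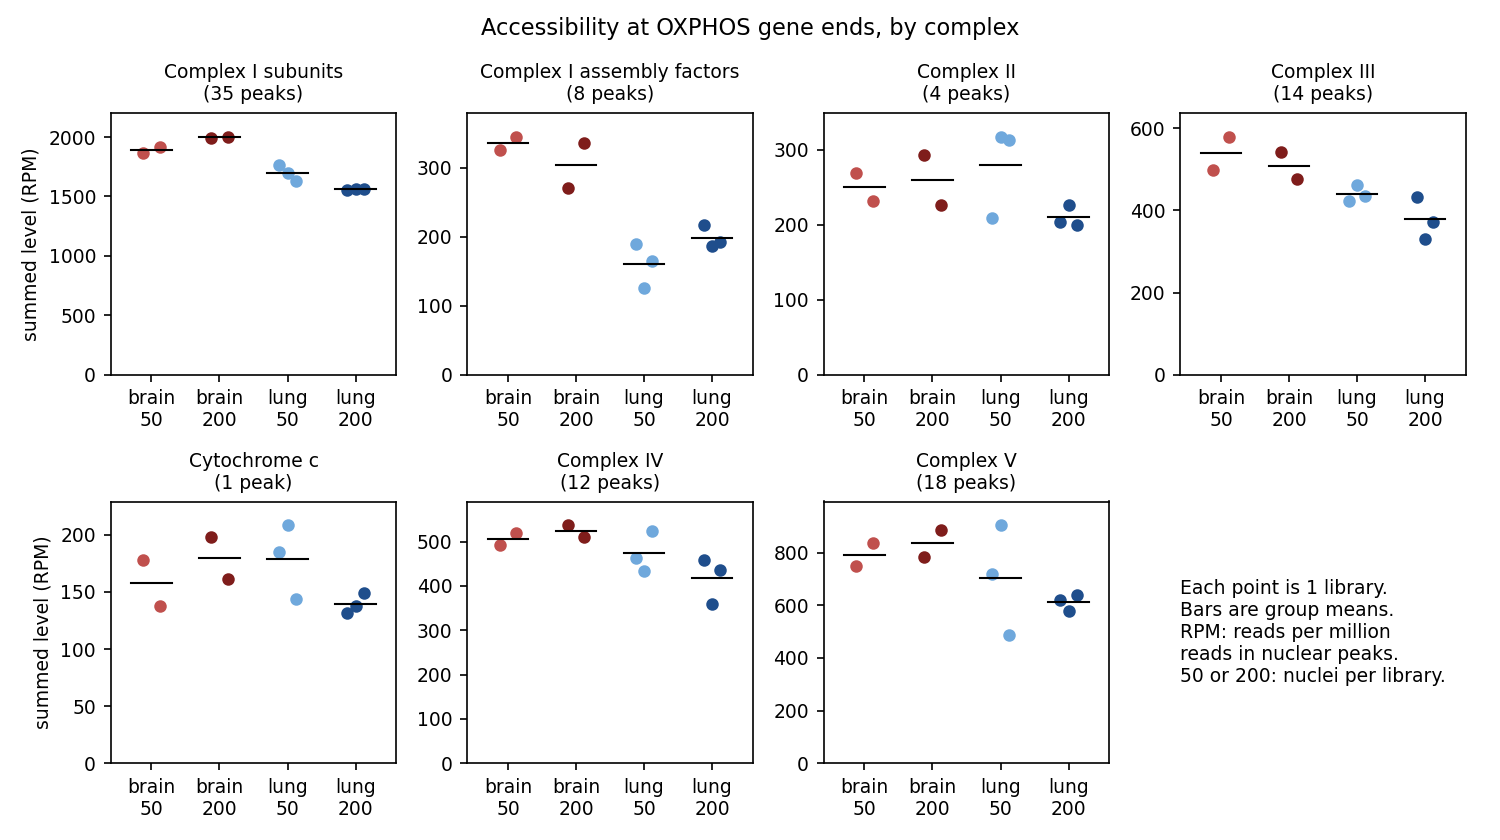
Summed level (RPM) of the peaks of each OXPHOS class, by tissue and nuclei per library; each point is 1 library and each bar a group mean. Brain and lung libraries are apart for complex I subunits, the Ndufaf assembly factors (271 to 345 RPM in brain, 126 to 217 RPM in lung) and complex III, and overlap for complexes II, IV and V and for cytochrome c. The overlap comes only from lung 50 replicate 3 in complex IV and only from lung 50 replicate 2 in complex V. The share of reads at all gene-end peaks, not drawn, was also apart.

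Few single peaks differed between tissues. Of the 92 peaks, all of which had at least 10 reads in sum and were tested, 3 were higher in brain and none lower by edgeR's quasi-likelihood test at a Benjamini-Hochberg adjusted p of 0.05 over all 37466 tested peaks. That is 3.26% of members, against 6.19% of all gene-end peaks and 5.76% of all peaks higher in brain. Lower in brain were 1.63% of gene-end peaks and 4.39% of all peaks, with 0 members. DESeq2 called 6 members, all higher in brain, where it called 3386 of all 37466 peaks higher and 2127 lower. At an unadjusted p under 0.05, 14 members were higher in brain (15.2%, against 17.3% of gene-end peaks) and 0 were lower (against 4.69%). Every brain library exceeded every lung library at 9 members, a share of 9.78% against 10.3% of gene-end peaks, and the reverse held at 0 members, against 2.35%. These shares were at or below the background of promoters at large.

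The fold was positive at 77 of 92 members (83.7%) and at 68.7% of gene-end peaks. The median log2 fold, brain over lung, was 0.50 for members, 0.37 for gene-end peaks and 0.07 for all peaks. The order of levels among members was alike in the tissues. Across the 92 peaks, log2(mean RPM + 1) in brain and lung had Pearson's r = 0.92 and Spearman's rho = 0.93. Across 13817 gene-end peaks these were r = 0.82 and rho = 0.84. Members are not independent replicates, and they share the libraries and the peak widths on which both levels depend. Width and level across members had rho = 0.91 in brain and 0.86 in lung.

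**Figure D3:**
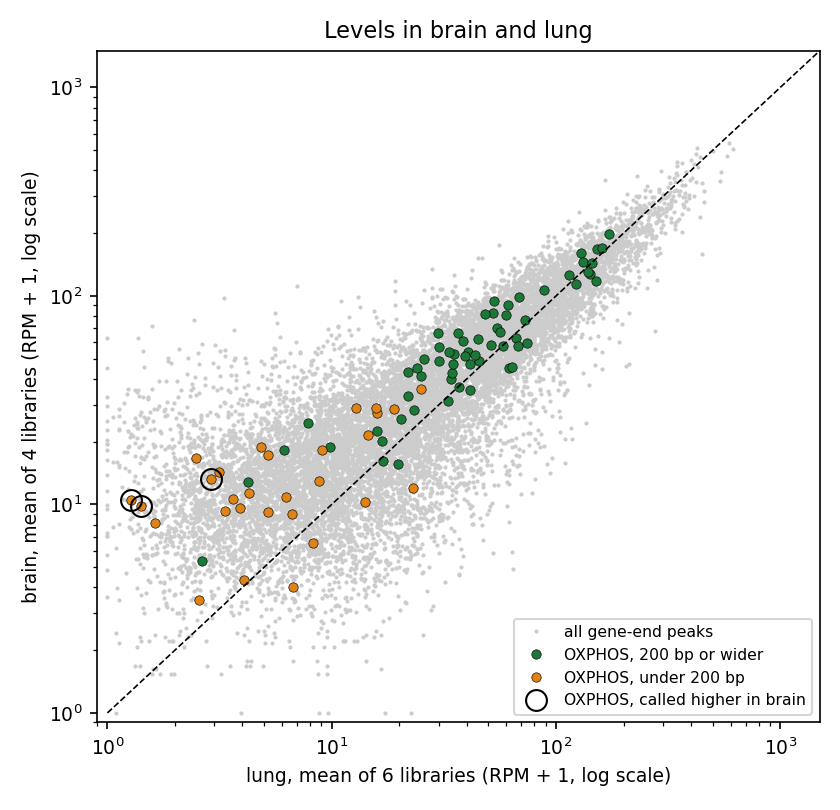
Mean level in brain (y, RPM + 1, log scale, 4 libraries) against lung (x, RPM + 1, log scale, 6 libraries) for all gene-end peaks (grey) and the 92 OXPHOS peaks, coloured by width; circles mark the 3 called higher in brain and the dashed line marks equal levels. OXPHOS peaks of 200 bp or wider follow the line, and the 3 called peaks are narrow, with lung means of 0.271 to 1.91 RPM.

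None of the strongest promoters named here was called between the tissues. Per kb of peak and averaged over all libraries, Atp5b was highest at 349 RPM per kb, followed by Uqcrq at 289, Atp5g2 at 262, Sdhb at 259, Ndufv3 at 257, Cycs at 247 and Ndufs7 at 247 RPM per kb. Atp5b encodes the catalytic beta subunit of ATP synthase, and its peak (chr10:128082951-128083400) had 151, 138, 183 and 193 RPM in brain and a lowest, median and highest of 116, 122 and 279 RPM in lung. The tissues overlapped there, with a log2 fold of 0.18 ± 0.25 (SE; edgeR adjusted p = 0.694). Uqcrq, a small subunit of complex III, had 197, 225, 198 and 170 RPM in brain and 159, 168 and 188 RPM in lung (lowest, median, highest), with a log2 fold of 0.22 ± 0.22 (edgeR adjusted p = 0.573). Uqcrh, the hinge protein of the same complex, had 60.2, 25.1, 87.8 and 32.2 RPM in brain and 0, 34.0 and 112 RPM in lung (lowest, median, highest), a log2 fold of 0.31 ± 0.54 that did not pass the test.

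Cycs (peak chr6:50566340-50567000, over the sequence printed above) had 178, 138, 198 and 161 RPM in brain and 131, 147 and 208 RPM in lung (lowest, median, highest). Its log2 fold was 0.10 ± 0.23 (edgeR adjusted p = 0.823), and the values were intermixed. Atp5g2, one of the genes for the membrane ring subunit c of ATP synthase, had 112, 135, 95.3 and 174 RPM in brain and 82.0, 118 and 282 RPM in lung at its strongest peak, a log2 fold of −0.03 ± 0.28 (edgeR adjusted p = 0.964). Lung 50 replicate 2 gave the highest lung value of Atp5b, Atp5g2 and Cycs.

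In complex I, Ndufv1, the subunit that binds NADH and FMN, had 109, 116, 120.4 and 125 RPM in brain and 87.0, 157 and 204 RPM in lung, a log2 fold of −0.32 ± 0.25 (unadjusted p = 0.213, edgeR adjusted p = 0.449). Ndufs7, an iron-sulfur subunit that passes electrons on towards ubiquinone, had 142, 172, 163 and 161 RPM in brain and 117, 123 and 149 RPM in lung, a log2 fold of 0.33 ± 0.24 (edgeR adjusted p = 0.397). Ndufv3, an accessory subunit, had 126, 191, 145 and 107 RPM in brain and 102, 125 and 238 RPM in lung, a log2 fold of 0.03 ± 0.25. All 3 overlapped between tissues.

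In complex II, Sdhb, the iron-sulfur subunit, had 150.5, 125, 133 and 98.8 RPM in brain and 114, 124 and 217 RPM in lung, a log2 fold of −0.12 ± 0.25 (edgeR adjusted p = 0.804). Sdhc, a membrane anchor, had 46.5, 59.5, 92.8 and 45.1 RPM in brain and 31.5, 39.5 and 61.6 RPM in lung, a log2 fold of 0.52 ± 0.37 (edgeR adjusted p = 0.396). Neither passed the test.

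The Ndufaf genes, the class with the highest ratio, varied among themselves. Ndufaf2, an assembly factor that binds late intermediates of complex I, had 95.8, 94.0, 85.3 and 101 RPM in brain and 36.7, 49.3 and 71.2 RPM in lung (lowest, median, highest) at chr13:108158277-108158827. No lung library reached the lowest brain library, and the log2 fold of 0.87 ± 0.32 missed the threshold (edgeR adjusted p = 0.0738). The peak was called with DESeq2 (adjusted p = 0.0220), with DESeq2 size factors in edgeR (0.0367), and in edgeR without lung 50 replicate 1 (0.0277), without replicate 3 (0.0187) or without replicates 2 and 3 (0.0282). Over all alternatives but the totals with chrM reads, where the fold changed sign, its adjusted p was 0.0187 to 0.238. Ndufaf3, which acts early in assembly, had 65.7, 37.6, 52.7 and 51.6 RPM in brain and 26.4, 34.1 and 41.0 RPM in lung, a log2 fold of 0.63 ± 0.41 (edgeR adjusted p = 0.342). Ndufaf1 and Ndufaf6 also had every brain library above every lung library, with log2 folds of 1.75 ± 0.84 and 0.99 ± 0.50, and neither passed the test. Ndufaf5, the exception, averaged 30.2 ± 3.9 RPM in brain (SD, n = 4), against 32.0 ± 9.9 RPM in lung (SD, n = 6), a log2 fold of −0.06 ± 0.49. Among 12 peaks at 9 other genes for complex I assembly factors, none was called in either direction and the median log2 fold was 0.17.

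Tissue isoform genes of complex IV showed no called difference. Cox4i1, the common isoform of subunit 4, averaged 76.0 ± 17.0 RPM in brain (SD, n = 4), against 71.6 ± 36.8 RPM in lung (SD, n = 6), a log2 fold of 0.08 ± 0.34, while its lung isoform partner Cox4i2 had no peak. Cox8a, the common isoform of subunit 8, had 101, 84.6, 150.4 and 85.9 RPM in brain and 67.5, 83.6 and 111 RPM in lung, a log2 fold of 0.26 ± 0.28. Cox6b2, the testis isoform of subunit 6b, had 27.4, 43.8, 32.6 and 8.6 RPM in brain and 5.9, 9.4 and 23.7 RPM in lung, a log2 fold of 1.22 ± 0.70 (edgeR adjusted p = 0.275), and it shared its promoter with Fam71e2. Its common partner Cox6b1 averaged 34.2 ± 10.2 RPM in brain, against 40.5 ± 27.9 RPM in lung, a log2 fold of −0.01 ± 0.48. Cox7a1, the heart and muscle isoform of subunit 7a, averaged 14.7 ± 7.1 RPM in brain, against 18.6 ± 12.8 RPM in lung, a log2 fold of −0.41 ± 0.76. Cox7a2l, which helps to join complexes III and IV, had a log2 fold of 0.47 ± 0.35 at its 520 bp peak and 1.92 ± 1.12 at its 93 bp peak. The 93 bp peak had 23.5 RPM in lung 50 replicate 2 and at most 0.975 RPM in the other lung libraries. Without that library its log2 fold was 4.71 and it was called (edgeR adjusted p = 0.0306), as it was at 4.75 without lung 50 replicates 2 and 3 (0.0382). Cox6a1, with the NRF1 core shown above, had 0.20 ± 0.43 at its 291 bp peak and 0.34 ± 1.32 at a 90 bp peak 327 bp upstream. With all libraries, none of these complex IV peaks passed the test.

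The lowest p-values on the lower side belonged to Atp5j, Ndufv1 and Cox5b, and none was called. Atp5j, the coupling factor of ATP synthase, had 10.9, 21.9, 2.5 and 8.6 RPM in brain and 15.4, 21.5 and 32.3 RPM in lung (lowest, median, highest). Its log2 fold was −1.12 ± 0.75 (unadjusted p = 0.142, edgeR adjusted p = 0.358). The peak lay at the promoter shared with Gabpa, the DNA-binding subunit of GABP, whose own main peak had a log2 fold of −0.51 ± 0.33 (edgeR adjusted p = 0.332). Cox5b, a nuclear subunit of complex IV, had 46.5, 50.1, 40.1 and 40.8 RPM in brain and 34.7, 54.1 and 106 RPM in lung, a log2 fold of −0.47 ± 0.38 (unadjusted p = 0.228, edgeR adjusted p = 0.465).

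The 3 called peaks were narrow and held few reads. At Uqcrc2, a core subunit of complex III, the called peak (chr7:120635524-120635614, 90 bp) held 4, 3, 1 and 7 reads in brain libraries and 5 reads in lung, all in 200-nucleus replicate 3. Its mean level was 9.47 ± 5.22 RPM in brain (SD, n = 4), against 0.271 ± 0.664 RPM in lung (SD, n = 6), with a log2 fold of 4.83 ± 1.35 (edgeR adjusted p = 0.0172). The wider peak of the same gene, 384 bp, had 57.5, 56.4, 40.1 and 36.5 RPM in brain and 0 to 85.8 RPM in lung, with a log2 fold of 0.79 ± 0.54 that did not pass the test.

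At Atp5a1, the alpha subunit of ATP synthase, the called peak (chr18:77773687-77773815, 128 bp) held 4, 1, 5 and 4 reads in brain and 0, 0, 0, 2, 1 and 2 in lung. Its log2 fold was 4.55 ± 1.30 (edgeR adjusted p = 0.0196), and Haus1 ends close by. At Ndufaf8, which works with Ndufaf5 in complex I assembly, the called peak (chr11:120099174-120099275, 101 bp) lay 290.5 bp downstream of the start, beyond the sequence shown, and held 6, 2, 2 and 10 reads in brain and 0, 0, 0, 13, 4 and 4 in lung. Its log2 fold was 4.05 ± 1.32 (edgeR adjusted p = 0.0427). Brain and lung overlapped at Ndufaf8 and not at the other called peaks.

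All 3 lung libraries of 50 nuclei were at 0 at these peaks, so the fitted folds depend on the prior count and are no measure of size. Pooled over libraries, the level was 9.68 RPM in brain against 0.638 RPM in lung at Uqcrc2, 9.04 RPM in brain against 0.638 RPM in lung at Atp5a1, and 12.9 RPM in brain against 2.68 RPM in lung at Ndufaf8. Uqcrc2 held 15 reads in brain and 5 in lung, and Atp5a1 held 14 and 5. Both met the filter of 10 summed reads only through brain, so their place among the tested peaks depended on the brain reads. The calls were not stable: each was lost on leaving out 1 of several libraries. Without lung 200 replicate 2, or without brain 50 replicate 1, no member was called. Without lung 50 replicate 1 the count was 17, without lung 50 replicate 3 it was 8, and without lung 50 replicate 2 it was 5. Over all peaks, 5240, 3313 and 2672 were then higher in brain, against 2158 with all libraries. The count of members was 1 without any single one of brain 50 replicate 2, brain 200 replicates 1 or 2, or lung 200 replicate 3.

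**Figure D4:**
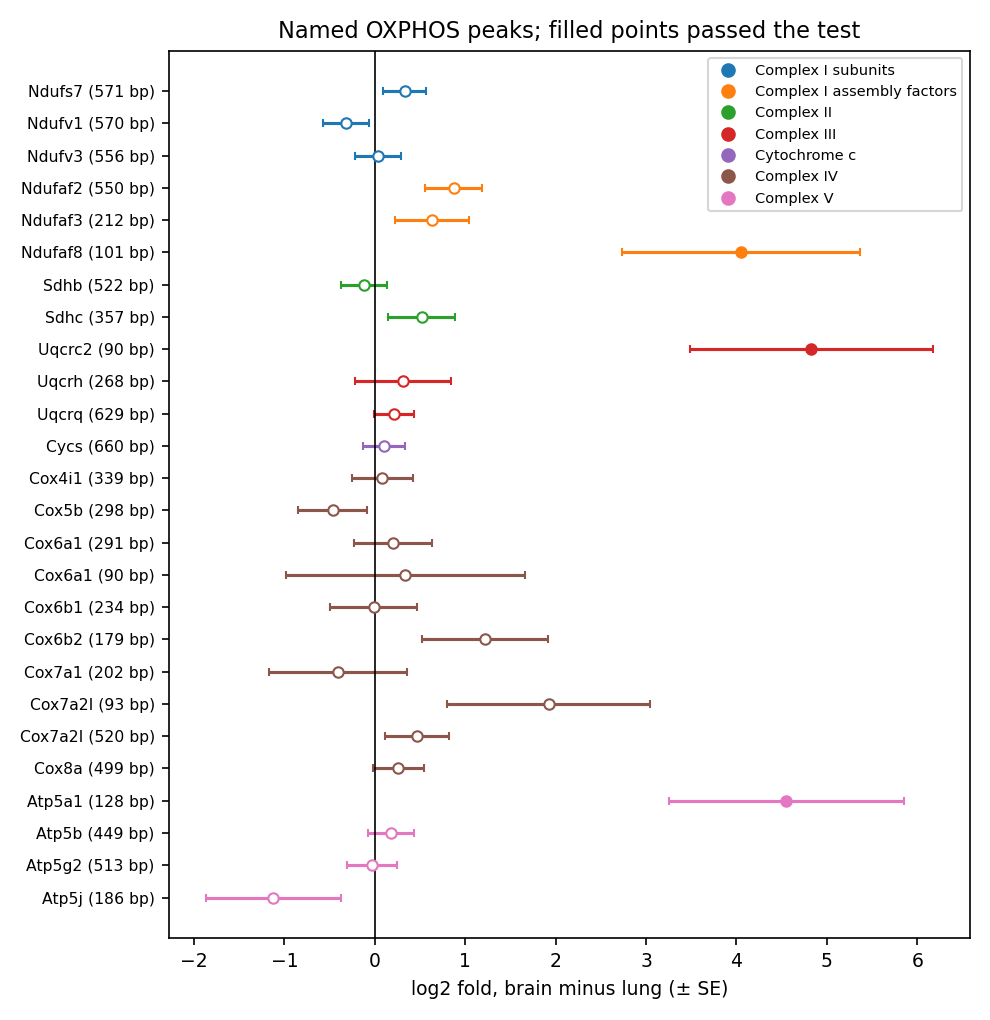
Log2 fold, brain over lung, with its standard error, for the OXPHOS peaks named by rule, ordered by complex and labelled with the gene and peak width; filled points passed the test. The 3 filled points, Ndufaf8, Uqcrc2 and Atp5a1, have standard errors of 1.30 to 1.35, and the wide peaks of Atp5b, Uqcrq, Cycs and Ndufv3 lie at 0.03 to 0.22.

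Width and position set the narrow peaks apart. The 29 members under 200 bp had a median log2 fold of 1.11, and the 63 wider ones had 0.31 with none called in either direction by edgeR. Gene-end peaks in general showed the same split, with 0.87 under 200 bp and 0.21 at 200 bp or wider. Called higher in brain were 3 of the 29 narrow members, beside 463 of 5564 narrow gene-end peaks, where 17 were lower. Of 8222 wider gene-end peaks, 390 were called higher in brain and 208 lower. In 16 genes with more than 1 peak, 14 of 18 further peaks had a higher fold than the strongest peak of the gene, and medians were 1.19 for further peaks and 0.40 for the strongest ones. At Ndufb4, an accessory subunit of complex I, the 127 bp peak 190.5 bp downstream of the start had 15.8 ± 10.1 RPM in brain (SD, n = 4), against 1.47 ± 2.0 RPM in lung (SD, n = 6), a log2 fold of 3.33 ± 1.15 (edgeR adjusted p = 0.0555). Its 379 bp peak 141.5 bp upstream had 61.9 ± 22.7 RPM in brain, against 65.1 ± 11 RPM in lung, a log2 fold of −0.13 ± 0.33.

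The 15 members centred over 100 bp downstream of the start all had positive folds, with a median of 1.85 on the log2 scale and 1.41 in libraries of 200 nuclei alone. Their summed level was 214 ± 41 RPM in brain (SD, n = 4; 163 to 254), against 88.9 ± 20.4 RPM in lung (SD, n = 6; 60.2 to 123), without overlap and with a ratio of 2.41. The 51 members within 100 bp of the start summed to 2928 ± 59 RPM in brain, against 2507 ± 205 RPM in lung, a ratio of 1.17. The 10 members over 100 bp upstream summed to 757 ± 73 RPM in brain, against 642 ± 104 RPM in lung, a ratio of 1.18. All 2373 gene-end peaks over 100 bp downstream of a start had a ratio of 1.33, a median log2 fold of 0.85 and a positive fold at 78.6%. Their summed levels did not overlap either, at 59266 to 61114 RPM in brain and 44179 to 47411 RPM in lung. Their median width was 146 bp, beside 141 bp for the 15 members, so position and width moved together, and their separate parts were not tested.

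**Figure D5:**
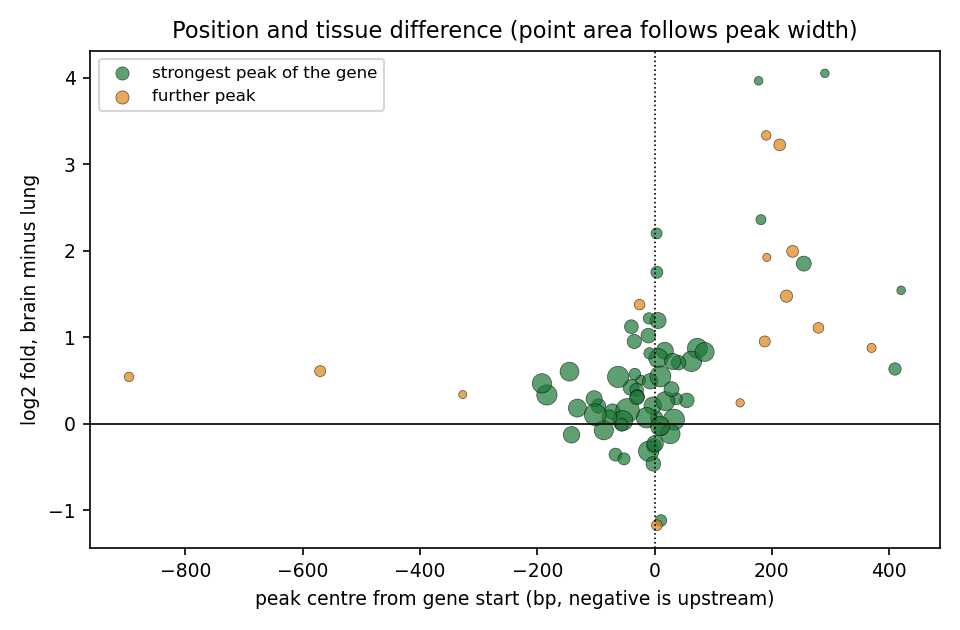
Log2 fold, brain over lung (y), against the distance of the peak centre from the gene start (x, bp, negative upstream), for the 76 OXPHOS peaks of known strand; point area follows peak width. All 15 peaks over 100 bp downstream lie above 0, and most are small points.

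Taken at one nuclei number at a time, no member was called between tissues. At 50 nuclei 0 members passed by edgeR, against 1.41% of all peaks, and 0 by DESeq2, against 1725 of all 37466 peaks. In edgeR 12 members had an unadjusted p under 0.05, against 17.1% of all peaks. At 200 nuclei 0 members passed by either tool, against 2.24% of all peaks by edgeR and 1432 of all 37466 by DESeq2. In edgeR 3 members had an unadjusted p under 0.05, against 13.7% of all peaks. The median log2 fold of members was 0.48 at 50 nuclei and 0.47 at 200, where gene-end peaks had 0.49 and 0.23. Ndufaf2 had log2 folds of 0.86 ± 0.46 at 50 nuclei and 0.89 ± 0.44 at 200.

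The number of nuclei made no called difference at any member. Between 200 and 50 nuclei in lung, 0 members and 0% of all peaks passed by edgeR, and DESeq2 called 0 members and 3 of all peaks. In edgeR 4 members had an unadjusted p under 0.05, against 8.2% of all peaks. They were 2 of the Ndufa12 peaks and the Ndufaf8 peak, with a higher level at 200 nuclei, and the Cox6b1 peak, with fewer. The 263 bp Ndufa12 peak, at a complex I accessory subunit gene, had 35.5, 50.5 and 39.7 RPM at 200 nuclei and 18.5, 0 and 0 RPM at 50 nuclei in lung. In brain, 0 members and 0% of all peaks passed by edgeR, and DESeq2 called 0 members and 0 of all peaks. In edgeR 0 members had an unadjusted p under 0.05, against 1.14% of all peaks. The tissue difference depended on nuclei number at 0 members and 0% of all peaks by edgeR, and at 0 members and 0 of all peaks by DESeq2. An unadjusted p under 0.05 was found at 2 members, Ndufaf4 and Ndufa12, against 4.15%.

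Genes that act beside OXPHOS gave a few calls in the same test. Among 19 peaks at 13 genes of regulators of mitochondrial biogenesis, 1 was higher in brain and none lower, and the median log2 fold was 0.40. It was Ppargc1a (chr5:52115890-52116146), which encodes the coactivator PGC-1alpha, with 21.9, 50.1, 65.2 and 40.8 RPM in brain and 0 to 10.2 RPM in lung. Its log2 fold was 3.38 ± 0.74 (edgeR adjusted p = 0.00202), and no lung library reached the lowest brain library. The factors whose cores were searched for showed no call: the main peak of Nrf1 had a log2 fold of 0.33 ± 0.46, that of Gabpa the value given above, and Yy1 −0.20 ± 0.25. Tfam, which packages mitochondrial DNA and helps to start its transcription, had 76.3 ± 13.9 RPM in brain (SD, n = 4), against 48.4 ± 16.1 RPM in lung (SD, n = 6), a log2 fold of 0.64 ± 0.35 (edgeR adjusted p = 0.252). None of 22 peaks at 16 genes of mitochondrial DNA maintenance was called in either direction (median log2 fold 0.46).

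Fuel supply showed 2 calls. Among 15 peaks at 12 glycolysis genes, Ldhb and Pfkp were higher in brain and none was lower (median log2 fold 0.52). Ldhb, the heart-type subunit of lactate dehydrogenase, had 52.0, 81.4, 82.7 and 64.4 RPM in brain and 4.3 to 37.1 RPM in lung, a log2 fold of 2.27 ± 0.48 (edgeR adjusted p = 0.00156). Pfkp, the platelet-type phosphofructokinase, had 82.1, 84.6, 95.3 and 68.7 RPM in brain and 14.7 to 59.7 RPM in lung, a log2 fold of 1.33 ± 0.40 (edgeR adjusted p = 0.028). Brain and lung did not overlap at either gene. Among 22 peaks at 16 genes of pyruvate dehydrogenase and the citric acid cycle, none was called in either direction (median log2 fold 0.25).

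Among 36 peaks at 31 genes for assembly factors of complexes II to V, 1 was higher in brain and none lower (median log2 fold 0.30). It was the 170 bp peak of Sdhaf1, which helps to insert iron-sulfur clusters into Sdhb, with 38.3, 28.2, 40.1 and 15.0 RPM in brain and 0 to 11.6 RPM in lung (log2 fold 2.55 ± 0.84, edgeR adjusted p = 0.0452). The 395 bp peak of the same gene had a log2 fold of −0.12 ± 0.27. Among 78 peaks at 58 genes of mitochondrial ribosomal proteins, which make the subunits encoded by mitochondrial DNA, 6 were higher in brain and none lower (median log2 fold 0.61). These shares stand beside the 6.19% of gene-end peaks higher in brain.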

How the data were processed

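The deposited table holds read counts per peak, with 1 column per library, which the authors made with Bowtie2 2.4.5, SAMtools 1.14 and MACS2 2.2.7.1 on mm10, per the submitters' processing notes. Not given in the sources used here were the merging of peaks, the unit counted (read or fragment), the treatment of reads with several placements and the base from which starts count. Peak coordinates are printed as deposited. All columns were used. The 2 chrM peaks were left out of RPM. Peaks with 10 or more reads in sum were tested with edgeR 4.0.16 (TMM scaling, 4 group means, quasi-likelihood test, R 4.3.3), the tissue contrast averaging both nuclei numbers. DESeq2 1.42.0 was an alternative. The test was checked on simulated counts.

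Gene ends came from RefSeq (GRCm38.p6). Members and gene lists were chosen with earlier results of these data known. Named peaks were those called, the 2 strongest genes per class by RPM per kb, tissue isoform pairs, and the 3 lowest p-values in a direction with fewer calls. Other peaks are named as examples, chosen after their values were seen. Depth per library was 573596 to 10973796 counts, chrM included.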

Additional observations from a re-analysis of the deposited data

How the results depend on the processing

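The count of members higher in brain, 3 in the report, was 7 with DESeq2 size factors, 6 with DESeq2, 0 with edgeR's filterByExpr, which drops 12 of the 92 members, 1 among peaks at a known 5′ end and 8 without lung 50 replicates 2 and 3 together. Over all peaks it was 2158 in the report, 2667 with those size factors, 3386 with DESeq2, 828 with filterByExpr and 3727 without both lung libraries. Leaving out 1 library gave 0 to 17 members and 877 to 5240 of all peaks. Replicate numbers are not shown to pair libraries: over 13 same-numbered pairs, deviations had correlations of −0.02 to 0.04. With a replicate block the count was 1 member and 970 of all peaks. Scaling to library totals with chrM reads gave a median log2 fold over all peaks of −3.34 in place of 0.07. Then 0 members were higher and 75 lower in brain, where 252 of all 37466 peaks were higher and 30079 lower. Under the same totals 56 members differed at 50 nuclei and 71 at 200, with no count over all peaks at hand. Over that denominator the summed log2 difference was −3.19, and over gene-end reads it was 0.13. Without lung 50 replicates 2 and 3, 3 differed at 200 nuclei. Leaving out 1 library gave 0 to 7 at 50 nuclei, 0 to 1 at 200 and 0 to 2 between nuclei numbers in lung, the highest without lung 50 replicate 1, except at 200 nuclei, where it was without replicate 3. No count over all peaks was at hand for members called at 1 nuclei number, or between nuclei numbers, on leaving out libraries. Those member counts have no background beside them. Other causes were not tested.

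Single folds that changed sign were uncalled in the report. Under those totals the log2 folds were −2.81 for Ndufaf3, −2.58 for Ndufaf2, −3.49 for Ndufv3, −3.16 for Ndufs7 and Cox8a, −2.94 for Sdhc, −3.26 for Uqcrq, −3.12 for Uqcrh, −3.39 for Cox4i1, −3.35 for Atp5b, −3.36 for Cycs, −3.32 and −2.82 for the Cox6a1 peaks, −2.19 for Cox6b2, and −1.53 and −3.02 for the Cox7a2l peaks. Atp5g2 was 0.042 with DESeq2, 0.043 with its size factors, 0.031 with filterByExpr, 0.024 with nuclear peaks only and 0.13 without both lung libraries. Cox6b1 was 0.059, 0.057, 0.047, 0.037 and 0.32 under the same settings. Without both, Cycs was −0.0066 and the 90 bp Cox6a1 peak −0.36, and the 90 bp peak was −0.18 with loess offsets. With the replicate block Uqcrh was −0.16, Cox6b1 0.32 and Cox7a1 0.066. Leaving out 1 library gave −0.14 to 0.17 for Ndufv3, −0.11 to 0.90 for Uqcrh, −0.090 to 0.44 for Cox4i1, −0.30 to 0.22 for Atp5g2, −0.31 to 0.19 for Cox6b1, −0.74 to 0.24 for Cox7a1, −0.22 to 0.011 for Sdhb, and −0.087 to 0.42 and −1.48 to 2.28 for the Cox6a1 peaks. Of the called peaks, Uqcrc2 kept its call with the block and Atp5a1 (adjusted p = 0.120) and Ndufaf8 (0.196) did not; Ndufaf8 also lost it with loess offsets (0.0728).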
